A study of Arabidopsis thaliana with 12 samples.

Results

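The cytosolic ribosomal protein genes described here are 57 nuclear genes, taken by their locus identifiers from a fixed list of members, out of 32846 genes in the deposited table. They cover 44 protein families, with 36 genes for proteins of the large subunit, 18 for the small subunit and 3 for the acidic stalk of the large subunit (P0 and P1). All 57 were found in the table, and all 57 reached at least 1 FPKM (fragments counted on the gene, scaled by its length and by the library total) in every library, so none was lost to the filter on low values. In the TAIR10.1 annotation all 57 identifiers have a matching gene, and each carries a ribosomal protein product or domain, for some under the number of the bacterial protein (L6 for the L9 genes, L2 for L8, L29 for L35). For 34 of them a note also places the protein in the cytosolic ribosome, 22 in the large and 10 in the small subunit by name. Family names below are the eukaryotic ones; gene symbols follow the annotation, which for some members uses another numbering (RPL16A and RPL16B encode L11).

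The cytosolic ribosome makes the nucleus-encoded proteins of a plant cell. Each of its proteins is needed in a single copy per ribosome, apart from the stalk proteins P1 and P2, and Arabidopsis encodes almost every one in several near-identical genes. Ribosomal protein mRNAs are abundant in growing tissue, and their synthesis and translation follow the growth signal of the kinase TOR. Single mutants often give pointed first leaves or embryo arrest, which is where symbols such as PFL (pointed first leaf), PGY (piggyback) and EMB (embryo defective) come from.

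RNA of whole Arabidopsis thaliana seedlings (Columbia 0) was sequenced in 4 groups of 3 libraries. The groups were irr seedlings given AtPep1, irr seedlings given water, wild-type (WT) seedlings given AtPep1 and WT seedlings given water. The mutant irr, also written rrm in the design text, is mutant for IRR, a protein with an RNA recognition motif; the labels name no allele and no transgene. AtPep1 is a peptide that plant cells release on wounding or attack and perceive through receptor kinases as a danger signal. Seedlings of 7 to 10 days were put in liquid MS medium, some 15 plants to a well, and 3 h later received 1 µM AtPep1 or water for 24 h at room temperature in constant light. Each library therefore pools many plants and all seedling organs. In such bulk samples, fewer cells with a high ribosome content and less of this RNA in each cell cannot be told apart. The design text calls the 3 samples of a group biological replicates without saying whether they came from separate cultures, so p-values measure how these samples vary, which may be technical variation.

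Library totals estimated from the steps between low values were 17.4 to 28.6 M reads in 11 libraries and 56.4 M in irr water replicate 3. That library also held the most RNA of chloroplast-encoded genes, 91764 summed FPKM, against 22347 to 44804 in the others. The level of AT3G23900, the IRR locus, averaged 11.2 ± 0.573 FPKM in irr and 11.6 ± 0.995 in WT with Pep1, and 11.95 ± 0.72 in irr and 12.8 ± 1.93 in WT under water (SD, n = 3 each). It did not separate the genotypes (mean irr effect -0.06 ± 0.08 SE on the log2 scale, limma adjusted p = 0.656), so the genotype directions rest on the labels.

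A pair of libraries stood apart for the ribosomal protein genes themselves. WT water replicate 2 was the highest of all 12 libraries for 52 of the 57 genes, and irr Pep1 replicate 3 was the lowest of all 12 for 54. The summed level of the 57 genes was 10206 FPKM in WT water replicate 2, or 1.30% of the column total, and 4898 FPKM in irr Pep1 replicate 3, or 0.634%. The remaining 10 libraries lay between 5890 and 8191 FPKM. The median SD of the members across replicates was 0.31 on the log2 scale in WT water, against 0.12 in the same libraries for the 5303 genes that averaged 20 FPKM or more. In irr Pep1 it was 0.22 against 0.16. The 4 groups share an estimate of the spread, so these libraries bear on the error of every comparison. They also lie in the direction of the differences described below. Without WT water replicate 2 the members' median for Pep1 in WT went from -0.36 to -0.20. Without irr Pep1 replicate 3 the median for Pep1 in irr went from -0.27 to -0.16. The comparisons of the 57 genes as a whole, with the member values that moved most, are also given without these libraries.

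**Figure D1:**
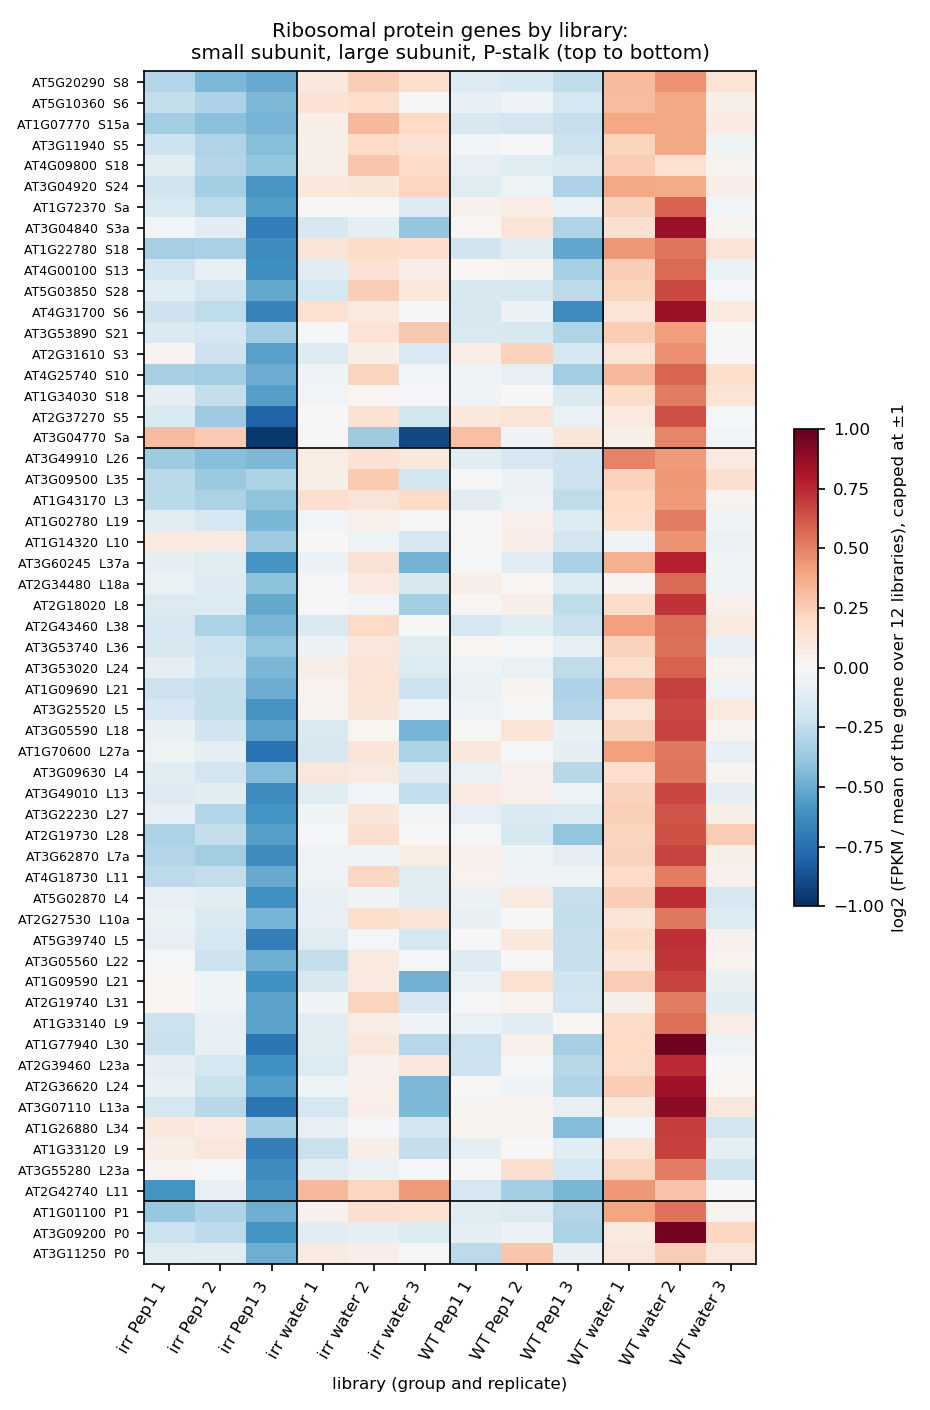
Level of each of the 57 genes (rows, small subunit, large subunit and stalk from top to bottom, each ordered by mean level) in the 12 libraries (columns, by group and replicate), as log2 of FPKM over the gene's mean across libraries, with colours capped at 1 in either direction. The column of WT water replicate 2 is red in nearly all rows and that of irr Pep1 replicate 3 is blue in nearly all rows; Pep1 columns are bluer than water columns of the same genotype.

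The members differed in level by over 2 orders of magnitude. S8, AT5G20290, had the highest mean over the 12 libraries at 375 FPKM. It was followed by L26 (AT3G49910) at 312, L35 (AT3G09500) at 291 and L3 (AT1G43170, symbol RP1) at 284 FPKM. L26 and L35 sit near the exit of the tunnel through which the new protein leaves, and L3 reaches towards the catalytic centre. L19 (AT1G02780, symbol emb2386), at 255 FPKM, and L10 (AT1G14320, SAC52), at 249.8 FPKM, came next. At the low end, RPL16A (AT2G42740) averaged 12.4 FPKM, the P0 gene AT3G11250 averaged 7.78 FPKM and RPSAb (AT3G04770) averaged 2.20 FPKM. Each of these 3 has a far more abundant partner of the same family among the members, as described below. The other 48 members averaged between 31.4 and 249.1 FPKM. FPKM is scaled by gene length, so these levels can be compared between genes, but the division of reads between near-identical copies depends on how the authors counted, which is not given in the sources used here.

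As a sum, the 57 genes stood at 5648 ± 664 FPKM in irr with Pep1, 7060 ± 428 in irr under water, 6459 ± 450 in WT with Pep1 and 8490 ± 1588 in WT under water (SD, n = 3 each). The 3 irr Pep1 libraries (6157, 5890 and 4898 FPKM) all lay below the 3 irr water libraries (6919, 7541 and 6721 FPKM). The WT Pep1 libraries (6676, 6759 and 5941 FPKM) likewise all lay below the WT water libraries (8191, 10206 and 7072 FPKM). Between genotypes, the irr Pep1 libraries overlapped with WT Pep1, and the irr water libraries with WT water.

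**Figure D2:**
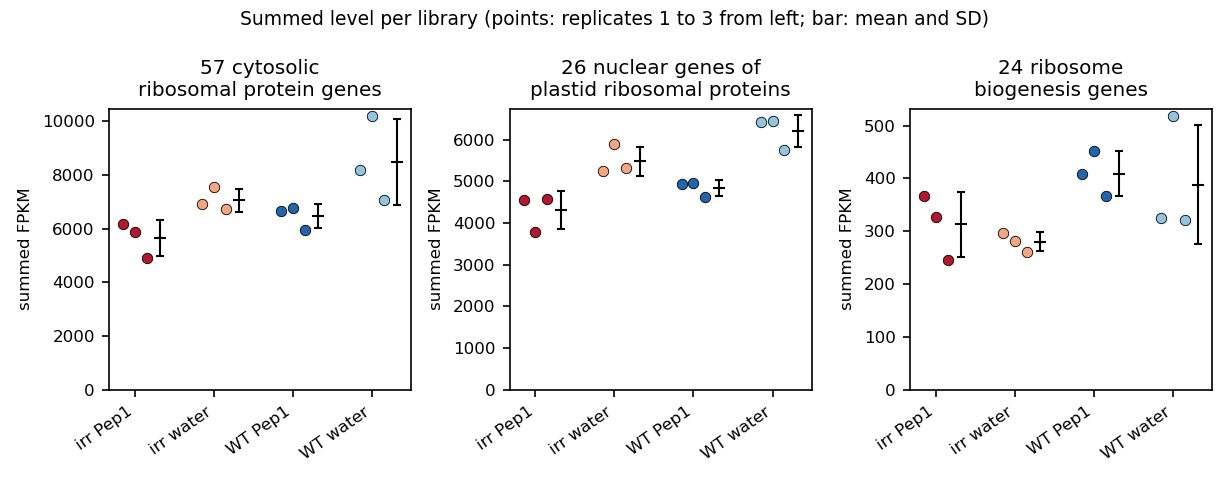
Summed FPKM per library (points, replicates 1 to 3 from left) with group mean and SD (bars) for the 57 cytosolic ribosomal protein genes, for 26 nuclear genes of plastid ribosomal proteins and for 24 ribosome biogenesis genes. In the first and second panels both Pep1 groups lie below their water groups without overlap. The third panel shows no such separation.

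The first question was what 24 h of Pep1 did to these mRNAs. With the Pep1 effect averaged over both genotypes, 22 of the 57 genes fell and 0 rose (limma, adjusted p under 0.05 over 18177 genes), where 5.45% of all genes tested fell. The median log2 difference of the members was -0.31, against 0.02 for all genes, and 56 of 57 had a negative value; the exception was RPSAb, at 0.09. By position in the ribosome, the 22 were 12 of the 18 small subunit genes, 9 of the 36 large subunit genes and 1 of the 3 stalk genes. In WT alone 8 genes fell and 0 rose, with 1.34% of all genes falling, a median of -0.36 against 0.04 for all genes, and negative values for all 57. In irr alone 7 fell and 0 rose, with 1.25% of all genes falling, a median of -0.27 against 0.00 and negative values for 54. Without WT water replicate 2 and irr Pep1 replicate 3, 19 genes fell in the averaged comparison, all of them among the 22. Their background differed too, as 2687 of 18066 genes were called in either direction in that fit, against 2100 of 18177 with all libraries. The members' median was then -0.18, against 0.05 for all genes.

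Among small subunit genes, S8, AT5G20290, was measured at 306, 275 and 264 FPKM in irr with Pep1, 402.5, 444 and 421 in irr under water, 344, 335 and 315 in WT with Pep1 and 468, 511 and 413 in WT under water. Every Pep1 library was below every water library of either genotype. Its log2 difference was -0.58 ± 0.10 in irr (SE, limma adjusted p = 0.0200) and -0.48 ± 0.10 in WT (adjusted p = 0.0264). RPS15A (AT1G07770, protein S15a of the subunit body) had 168, 160 and 154 FPKM in irr with Pep1, 222, 268 and 245 in irr under water, 192, 189 and 182 in WT with Pep1 and 280, 280 and 226 in WT under water. It too had no overlap between any Pep1 and any water library, and fell in irr by 0.60 ± 0.10 on the log2 scale (adjusted p = 0.0200) and in WT by 0.47 ± 0.10 (adjusted p = 0.0311).

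PFL (AT1G22780), the first of 3 genes for S18, a protein of the small subunit's head that touches the large subunit, showed the largest averaged fall. Its values were 70.9, 71.3 and 58.0 FPKM in irr with Pep1, 97.6, 101 and 100.2 in irr under water, 77.5, 82.5 and 62.3 in WT with Pep1 and 120.3, 129 and 97.5 in WT under water. The difference was -0.58 ± 0.13 in irr (adjusted p = 0.0489) and -0.64 ± 0.13 in WT (adjusted p = 0.0264). RPS18C (AT4G09800), the most abundant S18 gene, fell in irr (-0.44 ± 0.10, adjusted p = 0.0415) and in the averaged comparison (-0.35 ± 0.07, adjusted p = 0.00891). In irr it had 166, 147 and 138 FPKM with Pep1 and 188, 219 and 207 under water. AT1G34030, the third S18 gene, fell in the averaged comparison only, by 0.30 ± 0.09 (adjusted p = 0.0461); it was called in 8 of 23 alternatives, with adjusted p-values from 0.0112 to 0.102, and not without WT water replicate 2 or irr Pep1 replicate 3.

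**Figure D3:**
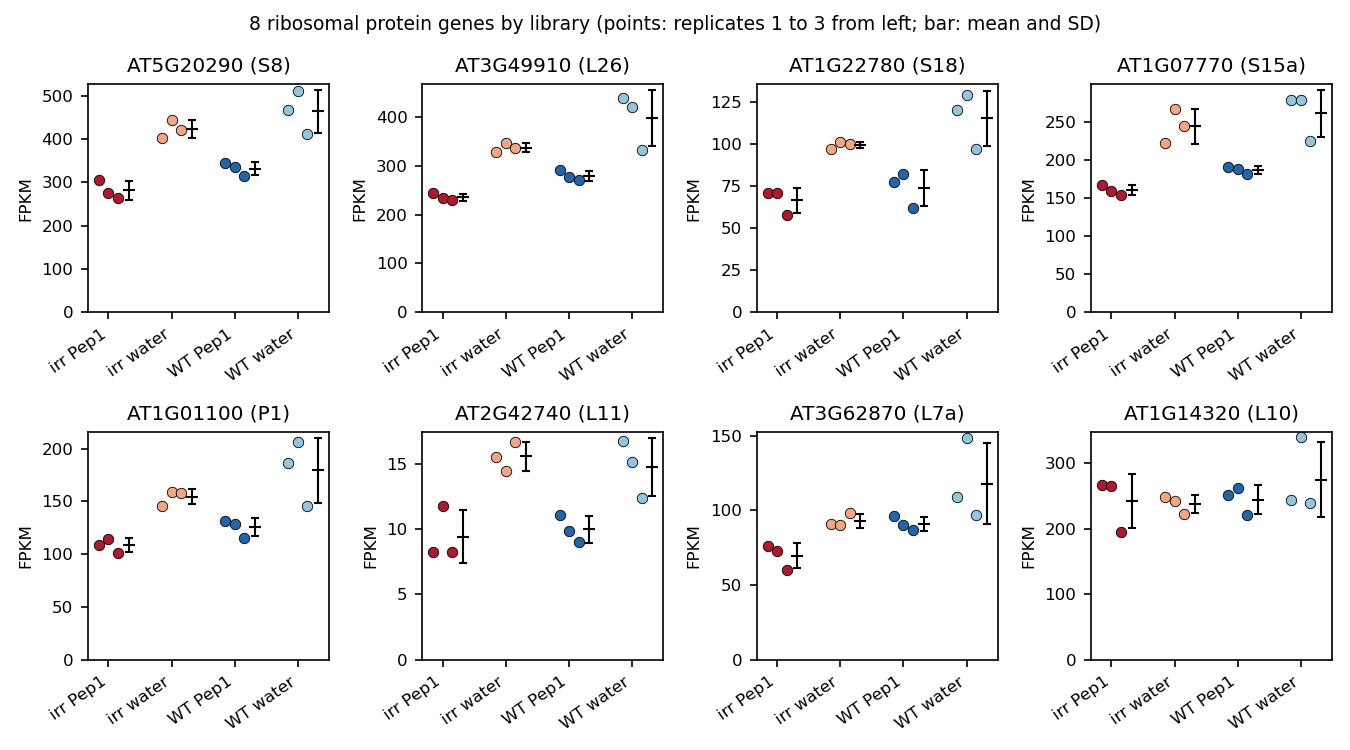
FPKM per library (points, replicates 1 to 3 from left) with group mean and SD (bars) for 8 members picked after their values were seen. S8, L26, S18 (AT1G22780), S15a, P1 and L11 (AT2G42740) lie lower in Pep1 than in water libraries of each genotype; L7a lies lower in irr than in WT with Pep1; L10 overlaps in every comparison.

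S6 is the ribosomal protein phosphorylated by S6 kinase downstream of TOR. Both of its genes fell in the averaged comparison, RPS6 (AT4G31700) by 0.55 ± 0.15 (adjusted p = 0.0337) and EMB3010 (AT5G10360) by 0.39 ± 0.07 (adjusted p = 0.00799). EMB3010 had 211, 201 and 183 FPKM in irr with Pep1, 275, 281 and 248 in irr under water, 235, 242 and 220 in WT with Pep1 and 309, 326 and 259 in WT under water, with no overlap between any Pep1 and any water library. RPS6 had 158 FPKM in WT water replicate 2, against 96.0 and 93.4 in its partners, and its call was lost without that library (adjusted p = 0.0516), within a range of 0.0128 to 0.0757 over 23 alternatives. S24 (AT3G04920) fell by 0.47 ± 0.08 and S10 (AT4G25740) by 0.47 ± 0.09 (adjusted p = 0.00662 and 0.00722). S21 (AT3G53890), S28 (AT5G03850), which lies by the channel where mRNA leaves, and RPS5A (AT3G11940), whose promoter is widely used to drive genes in dividing cells, fell by 0.39, 0.40 and 0.35. The call of S28 was lost without either outlying library (adjusted p = 0.0786 without WT water replicate 2 and 0.0615 without irr Pep1 replicate 3). S10 was called in WT on its own as well (-0.51 ± 0.12, adjusted p = 0.0434).

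The 6 small subunit genes that did not pass in the averaged comparison were S3 (AT2G31610), S3a (AT3G04840), RPS5B (AT2G37270), RPS13A (AT4G00100), P40 (AT1G72370) and RPSAb. P40 and RPSAb encode Sa, which sits on the outer side of the small subunit. S3a had 173 FPKM in WT water replicate 2 and 58.7 in irr Pep1 replicate 3, while the other 10 libraries lay between 72.7 and 106 FPKM. RPSAb, the scarcest member, had 2.75, 2.65 and 1.13 FPKM in irr with Pep1, 2.22, 1.72 and 1.18 in irr under water, 2.71, 2.16 and 2.40 in WT with Pep1 and 2.30, 3.09 and 2.16 in WT under water. Its groups overlapped in all 4 comparisons of 2 groups.

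In the large subunit, L26, AT3G49910, had 244, 233 and 229 FPKM in irr with Pep1, 328, 346 and 337 in irr under water, 290.5, 278 and 270.3 in WT with Pep1 and 439.5, 421 and 332 in WT under water. All Pep1 libraries were below all water libraries, with a difference of -0.52 ± 0.10 in irr (adjusted p = 0.0344) and -0.50 ± 0.10 in WT (adjusted p = 0.0270). RPL16A (AT2G42740), the minor of 2 genes for L11, a protein that binds the smallest ribosomal RNA together with L5, had the largest fall of all members in irr. Its values were 8.23, 11.7 and 8.25 FPKM in irr with Pep1, 15.5, 14.5 and 16.7 in irr under water, 11.1, 9.83 and 9.03 in WT with Pep1 and 16.7, 15.2 and 12.4 in WT under water. The difference was -0.68 ± 0.15 in irr (adjusted p = 0.0399) and -0.60 ± 0.10 averaged over genotypes (adjusted p = 0.00527). L3, AT1G43170, fell in irr (-0.49 ± 0.10, adjusted p = 0.0387), with 236, 228 and 215 FPKM under Pep1 against 319, 311 and 326 under water.

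Of the large subunit genes, L28 (AT2G19730, -0.56 ± 0.13, adjusted p = 0.0440) and L38 (AT2G43460, -0.52 ± 0.13, adjusted p = 0.0467) also fell in WT and were not called in irr. L38, known in mice for its part in translating Hox mRNAs, had 153, 159 and 148 FPKM in WT with Pep1 and 230, 254 and 184 in WT under water. The stalk protein P1 (AT1G01100), which helps recruit elongation factors, fell in WT as well (-0.50 ± 0.12, adjusted p = 0.0429), with 132, 129 and 116 FPKM with Pep1 and 186, 207 and 145 under water. Its difference in irr was nearly the same at -0.51 and did not pass (109, 114 and 101 FPKM with Pep1 against 146, 159 and 158 under water). None of these differences between genotypes was itself past the threshold, as given below. In the averaged comparison the large subunit genes that fell were RPL16A, L26, L28, L38, L3, ATL5 (AT3G25520), L27 (AT3G22230), L7a (AT3G62870) and L35 (AT3G09500).

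The remaining 27 large subunit genes did not pass in the averaged comparison, though all 36 values of the subunit were negative. The smallest change was seen in L10 (SAC52), the target of the antiviral receptor kinase NIK1. It had 267, 266 and 194 FPKM in irr with Pep1, 249, 242 and 222 in irr under water, 251, 262 and 220 in WT with Pep1 and 243, 341 and 239.6 in WT under water. These libraries overlapped in every comparison, as did those of L34 (AT1G26880). L9 (AT1G33120) averaged 35.2 ± 9.81 FPKM in irr with Pep1 and 35.1 ± 4.19 in irr under water, and was lower in WT with Pep1 (36.6 ± 1.41) than in WT under water (46.6 ± 13.4) by less than the spread of the water libraries.

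How far single libraries carried these calls differed between the comparisons. The averaged Pep1 comparison had between 16 and 31 calls when any 1 library was left out, of which 16 to 22 were among the 22, and 9 of the 10 members with the largest fall (PFL, RPL16A, RPS15A, S8, L26, P1, L28, S10 and S24) were called in all 23 alternatives; RPS6 was the exception. In WT alone no member was called without WT water replicate 1, WT water replicate 2 or any 1 of the 3 WT Pep1 libraries. Over all genes tested, the fits without 1 of those WT libraries gave 105 to 169 calls, against 630 with all libraries. In WT 4 members were called without irr water replicate 1 or irr Pep1 replicate 1. In irr alone none was called without irr water replicate 2, irr Pep1 replicate 1 or irr Pep1 replicate 2. Those fits gave 0, 18 and 12 calls over all genes, against 362 with all libraries. In irr 3 members were called without WT water replicate 1, and 2 without irr water replicate 1, irr water replicate 3 or any WT Pep1 library. The medians moved as well: without WT water replicate 2 the WT median was -0.20, and without irr Pep1 replicate 3 the irr median was -0.16.

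Counting libraries instead of p-values, 28 of 57 members had all 3 irr Pep1 libraries below all 3 irr water libraries, where 10.8% of all genes tested did so. In WT 29 members did so, where 12.6% of all genes did. Members with a higher mean level had somewhat more negative Pep1 differences (Spearman's rho -0.301 over 57 genes, as a description; the same libraries lie behind all points, and the added 1 FPKM shrinks the change of the lowest genes).

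Whether the response to Pep1 differed between genotypes was tested with the interaction. None of the 57 members passed (limma, 0 at an adjusted p under 0.05 and 0 at an unadjusted p under 0.05, where 4.86% of all genes were lower), and none of all genes tested passed (0%). The median interaction of the members was 0.08, against -0.04 for all genes, with 39 positive and 18 negative values. Without WT water replicate 2 the balance turned, to a median of -0.07 with 42 negative values. The smallest p-values were those of RPS18C (-0.18 ± 0.14, adjusted p = 0.891), P0 (AT3G09200, 0.33 ± 0.27, adjusted p = 0.903), L37a (AT3G60245, 0.37 ± 0.30, adjusted p = 0.903) and RPL24A (AT2G36620, 0.34 ± 0.29, adjusted p = 0.911). Without WT water replicate 2 the values of P0, L37a and RPL24A were 0.06, 0.17 and 0.10, and without irr Pep1 replicate 3 that of RPS18C was -0.12. The SEs of these 4 interactions, 0.14 to 0.30, were close to or below the members' median Pep1 difference in size. Over the 57 genes, 54 had a negative Pep1 difference in both genotypes, and the differences in irr and WT had a Spearman's rho of 0.486; the 2 comparisons share no library, and genes are not independent replicates.

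**Figure D4:**
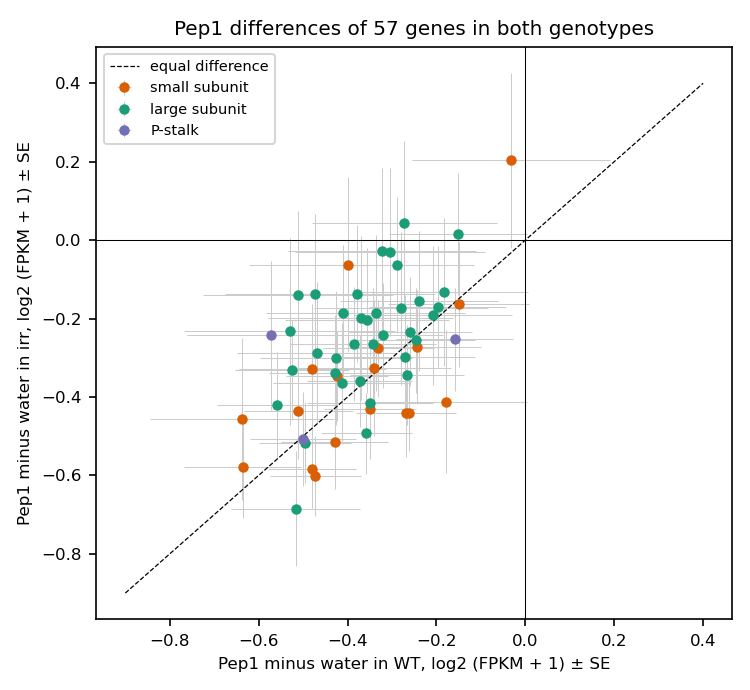
Difference between Pep1 and water libraries in log2(FPKM + 1) for each of the 57 genes, in irr (y axis) against WT (x axis), with SE bars and colours by position in the ribosome; the dashed line marks equal differences. Of the 57 points, 54 lie to the lower left, where both differences are negative.

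The second question was how irr seedlings compared with WT. Under water 0 of the 57 genes passed, where 0.963% of all genes tested fell in irr; 16 members were lower at an unadjusted p under 0.05, as were 8.14% of all genes, and the median was -0.26 against 0.03 for all genes. With Pep1 0 passed, where 0.363% of all genes fell; 7 were lower at an unadjusted p under 0.05, as were 7.66% of all genes, and the median was -0.20 against -0.03. Averaged over both treatments, 1 gene fell, where 3.9% of all genes did, and 28 were lower at an unadjusted p under 0.05, as were 12.9% of all genes. All 57 averaged values were negative, with a median of -0.24 against 0.00 for all genes. Without both outlying libraries that median was -0.12 against 0.02 for all genes, with 49 negative values. In that fit 1 member was called, where 2866 of 18066 genes were called in either direction. There 8 members were lower at an unadjusted p under 0.05, and the share of all genes was not counted for that fit. The medians for single treatments also moved without these libraries. Without WT water replicate 2 the median under water was -0.12, against 0.05 for all genes. Without irr Pep1 replicate 3 the median with Pep1 was -0.08, against 0.00 for all genes. In each case 0 members were lower at an unadjusted p under 0.05.

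The gene that fell was L7a (AT3G62870), with 75.8, 73.0 and 60.3 FPKM in irr and 96.2, 90.0 and 86.8 in WT with Pep1, and with 90.6, 90.2 and 98.0 in irr and 109, 148 and 96.6 in WT under water. Its averaged difference was -0.35 ± 0.10 (adjusted p = 0.0404). The call was lost in 13 of 23 alternatives, among them leaving out WT water replicate 2 (-0.26, adjusted p = 0.0560), with adjusted p-values from 0.00968 to 0.0944 over all of them. The next smallest p-values were those of L26 (-0.24 ± 0.07, adjusted p = 0.0545), RPL18 (AT3G05590, -0.40 ± 0.12, adjusted p = 0.0547) and P40 (-0.32 ± 0.10, adjusted p = 0.0592). Without both outlying libraries L7a stood at -0.21, RPL18 at -0.24 and P40 at -0.18.

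Within treatments, the smallest p-values under water belonged to RPL18 (-0.51 ± 0.17, adjusted p = 0.116), P0 (AT3G09200, -0.53 ± 0.19, adjusted p = 0.130), L13a (AT3G07110, -0.55 ± 0.21, adjusted p = 0.153) and L38 (-0.33 ± 0.13, adjusted p = 0.155). Without WT water replicate 2 the values of RPL18, P0, L13a and L38 were -0.33, -0.27, -0.29 and -0.23. P0, the scaffold of the stalk, had 123, 124 and 120.5 FPKM in irr and 142, 257 and 154 in WT under water. Those groups did not overlap, and WT water replicate 2 stood far above its partners. RPL18 had 118, 133 and 94.8 FPKM in irr and 153, 209.5 and 135 in WT. With Pep1 the smallest p-values belonged to L7a (-0.39 ± 0.14, adjusted p = 0.186), RPS5B (AT2G37270, -0.48 ± 0.18, adjusted p = 0.1996), RPL16B (AT4G18730, -0.31 ± 0.13, adjusted p = 0.232) and L26 (-0.25 ± 0.10, adjusted p = 0.243). RPS5B had 34.3, 29.7 and 21.9 FPKM in irr and 41.1, 42.0 and 36.5 in WT with Pep1, with no overlap; its difference was -0.31 without irr Pep1 replicate 3. Counted by libraries, 15 members had all irr libraries below all WT libraries with Pep1, where 12.8% of all genes did, and 10 under water, where 10.4% did.

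The genotype difference depended on how libraries were brought to a common scale. With library medians made equal, 25 members fell for the averaged irr effect, where 2920 of 18177 genes were called in either direction. Quantile normalization gave 25 (3038 of all genes) and rescaling without organelle-encoded genes 0 (2178), against 1 (2262) without rescaling. The median of all genes was -0.05 with equal medians and -0.05 with quantile normalization, and that of the members -0.29 and -0.30. The direction was negative for 57, 57 and 56 members under these 3 settings.

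**Figure D5:**
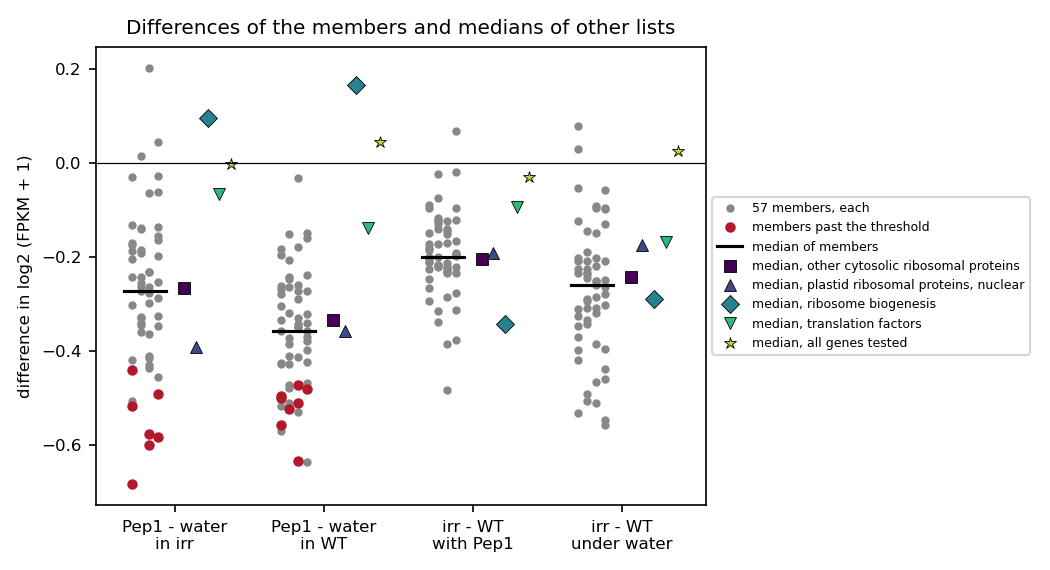
Differences in log2(FPKM + 1) in the 4 comparisons of 2 groups: each of the 57 members (grey, or red where past the adjusted threshold), their median (line), and the medians of 4 other gene lists and of all genes tested (symbols). The members' medians lie at -0.27 and -0.36 for Pep1 and at -0.20 and -0.26 for irr; ribosome biogenesis genes lie above 0 for Pep1 and below the members for irr.

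Several members come as near-identical pairs or a trio from 12 families, and the division of each family's FPKM between its copies was compared across libraries. The calculation was added after the levels had been seen. AT4G18730 held 87.8 ± 1.79% of the FPKM of the 2 L11 genes in irr with Pep1, 84.5 ± 2.39% in irr under water, 89.4 ± 0.673% in WT with Pep1 and 87.2 ± 1.86% in WT under water. AT3G09200 held 93.1 to 96.5% of the FPKM of the P0 pair and P40 held 97.2 to 98.8% of the Sa pair over the 12 libraries. The shares of the other families were more even, as in L4, where AT3G09630 held 53.3 to 60.1% and AT5G02870 the rest, and in L5, where ATL5 held 61.1 to 65.6% and RPL5B (AT5G39740) the rest.

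PFL held 25.7 ± 1.30% of S18 FPKM in irr with Pep1, 28.1 ± 0.920% in irr under water, 25.4 ± 2.31% in WT with Pep1 and 30.4 ± 1.61% in WT under water. The log2 ratio of PFL to AT1G34030 was lower with Pep1 than under water by 0.30 in WT and by 0.30 in irr (exact stratified permutation test, two-sided p = 0.005, the smallest that 400 arrangements allow). Its adjusted p over 28 such tests was 0.07. The ratio of RPL23AA (AT2G39460) to RPL23AB (AT3G55280) was lower with Pep1 by 0.22, that of the L21 genes AT1G09690 to AT1G09590 by 0.19, that of ATL5 to RPL5B by 0.11 and that of P40 to RPSAb by 0.34, while the ratio of RPS18C to PFL was higher by 0.26 (adjusted p = 0.07 each). In irr the ratio of RPS5A to RPS5B was higher than in WT by 0.23 (adjusted p = 0.07), and that of STV1 (AT3G53020) to RPL24A, the 2 genes for L24, by 0.15 (adjusted p = 0.07). None of the 28 tests passed an adjusted 0.05. The ratio of AT1G33140 (PGY2) to AT1G33120, both for L9, gave an exact p of 0.22 for Pep1 and 0.78 for irr. Reads of such copies may have been shared between them in counting, so these ratios are uncertain.

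The members were set beside other genes of the translation machinery. Of 164 further cytosolic ribosomal protein genes, 146 passed the filter, 8 were listed at 0 throughout, 48 fell in the averaged Pep1 comparison and 0 rose, with a median of -0.29. The strongest of them was AT2G37190 (-0.79 ± 0.09, adjusted p = 0.000602). For the averaged irr effect 12 of the 146 fell, with a median of -0.22. Without both outlying libraries 32 fell and 2 rose for Pep1 (median -0.16), and 4 fell for irr (median -0.10). Plastid ribosomal proteins, made in the cytosol for the ribosomes of the chloroplast, gave 23 falls among 26 genes for Pep1, with a median of -0.38. EMB3105 (AT1G48350) fell by 0.57 ± 0.09 (adjusted p = 0.00348). These 26 genes had a median of -0.18 for the averaged irr effect, with 2 falls; without both outlying libraries the counts were 20 falls for Pep1 and 2 for irr. The differences between these lists and the members were not tested.

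Ribosome biogenesis factors, which process ribosomal RNA and assemble the subunits in the nucleolus, gave no call for Pep1 with all libraries in the fit. Of 23 tested, 0 rose and 0 fell by limma (1 at an unadjusted p under 0.05), and the median was 0.10. For the averaged irr effect 4 of the 23 fell, with a median of -0.44, and all 23 values were negative. The sum of the list was 367, 327 and 245 FPKM in irr with Pep1, 297, 281 and 261 in irr under water, 409, 452 and 366 in WT with Pep1 and 324, 518 and 322 in WT under water, so that the outlying libraries stood apart here too. Without both of them 8 of the 23 rose with Pep1 (median 0.25), and 3 fell for the averaged irr effect (median -0.24, with 21 negative values). Among the 4 genes that fell were AT2G40360 (-0.52 ± 0.14, adjusted p = 0.0381), NSN1 (AT3G07050, a nucleolar GTPase, -0.50 ± 0.14, adjusted p = 0.0438) and AT3G05060 (-0.47 ± 0.13, adjusted p = 0.0336). Of 24 translation factors 2 fell with Pep1 on average, PAB8 (AT1G49760, a poly(A)-binding protein, -0.48 ± 0.10, adjusted p = 0.0144) and EIF4A1 (AT3G13920, an RNA helicase of initiation, -0.26 ± 0.06, adjusted p = 0.0167); the list's median was -0.12, or 0.02 without both outlying libraries.

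Of 10 genes of TOR and S6 kinase signalling, 2 rose with Pep1 on average and 0 fell, with a median of 0.08. They were S6K2 (AT3G08720), a kinase of ribosomal protein S6 (0.60 ± 0.15, adjusted p = 0.0253), and TCP20 (AT3G27010), a transcription factor known to bind promoters of ribosomal protein genes (0.42 ± 0.08, adjusted p = 0.00751). S6K2 was also higher in irr on average (0.61 ± 0.15, adjusted p = 0.0225). For S6K2 and the S6 genes the averaged mRNA differences with Pep1 had opposite signs. The most abundant gene of the list, AT3G08730, averaged 41.3 FPKM and was not called for Pep1. S6K2 was scarcer, at 16.0 ± 5.47 FPKM in irr with Pep1 and 6.12 ± 0.73 in WT under water (SD).

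Markers of tissues in the seedling moved with the ribosomal protein genes in part. The summed FPKM of 11 dividing cell markers was 67.4 to 70.4 in irr with Pep1, 82.1 to 93.0 in irr under water, 73.0 to 76.9 in WT with Pep1 and 77.4 to 110 in WT under water, so that Pep1 and water libraries did not overlap within either genotype. Of these 11 markers, 2 fell and 2 rose in the averaged Pep1 comparison. The most abundant, the histone gene HIS4 (AT2G28740), averaged 31.5 FPKM and was among those that fell, so the sum leaned on it. Photosynthetic leaf markers (12 genes, 3 of which fell with Pep1 on average) summed to 53324 to 80862 FPKM in irr with Pep1, 61764 to 73258 in irr under water, 65815 to 79478 in WT with Pep1 and 82210 to 99307 in WT under water. The 10 root markers, of which 5 passed the filter and none was at 0 throughout, summed to 18.7 to 41.3 FPKM in irr with Pep1, 26.9 to 45.2 in irr under water, 39.4 to 47.3 in WT with Pep1 and 40.7 to 92.8 in WT under water. Their sum rested largely on AT2G01520, which averaged 30.1 FPKM over the 12 libraries. Among the 5 that passed the filter, 4 fell with Pep1 in irr and 1 in WT, and 0 rose in either. In WT 3 of the 5 differences were positive, with a median of 0.58, and in irr 1 was, with a median of -1.65. For the interaction 4 of the 5 had an unadjusted p under 0.05 by limma, as did 1219 of 18177 genes, and 0 passed. The 7 low-oxygen handling markers, of which 5 passed the filter and none was at 0 throughout, summed to 17.9 to 35.1 FPKM in irr with Pep1, 16.3 to 17.3 in irr under water, 19.3 to 27.8 in WT with Pep1 and 12.5 to 23.1 in WT under water. The part of any of these in the ribosomal protein differences was not tested. For the outlying libraries, WT water replicate 2 had 91.9 FPKM of dividing cell markers and 40.7 of root markers, the first between and the second below those of its partners, and irr Pep1 replicate 3 had the highest leaf sum (80862) and the lowest root sum (18.7) of its group.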

How the data were processed

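Per the labels, total RNA of pooled whole seedlings was read from both fragment ends, and 20 M raw reads are stated for each sample. The authors deposited FPKM values in 1 table of 12 libraries. The sources used here give no aligner, counting tool, genome build or annotation, so no coordinates or sequences are printed. The TAIR10.1 reference served for names and for the exon lengths behind the estimated library totals, and 31912 identifiers matched it. FPKM were taken as log2(FPKM + 1), for 18177 genes with at least 1 FPKM in at least 3 libraries, and fitted by limma (version 3.58.1, R version 4.3.3) to all 12 libraries with a mean for each of the 4 groups, leaving 8 residual degrees of freedom, and with the variance following a trend on the mean. Fold changes are log2 differences on that scale ± SE; the pseudocount makes changes of scarce genes look smaller. Tests were two-sided, and p-values were adjusted by Benjamini-Hochberg across the 18177 genes of each contrast, with a call at 0.05. There were 7 contrasts: Pep1 against water in each genotype and averaged, irr against WT in each treatment and averaged, and the interaction. The fit and the estimate of library totals were tested on simulated data. Totals are those at which low values of single-transcript genes become whole reads (37.0 to 42.5% within 0.05 of a read, against 8.94 to 18.9% at a wrong total), and depth sets counting error only.

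The members and lists were chosen with earlier results of these data known. All members are described; test values are given for members that passed in a contrast (the 10 largest changes where more did), for the 4 smallest p-values where fewer than 4 passed, for AT3G23900 and for up to 3 genes per other list that passed. Other members named, among them 6 more with values for the averaged Pep1 effect, were picked after their values were seen, as was the comparison of copies, which permuted treatment within genotype, or genotype within treatment, over all 400 arrangements. The alternatives tried were a pseudocount of 0.1 or 5, no filter, a mean of at least 5 FPKM, 3 other scalings, a block for replicate number, a fit without the trend, library weights, 2-group fits, and leaving out each library or both outlying ones.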

Additional observations from a re-analysis of the deposited data

How the results depend on the processing

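None of the 47 member results given with tests, and no median of a comparison with calls, changed sign under an alternative; the median interaction, with no calls, did (0.08, or -0.07 without WT water replicate 2). Calls over all genes, in both directions, are given in brackets. In WT with Pep1 against water, 8 members were called (630 genes). With no filter 4 were called (407), without organelle-encoded genes in the scaling 4 (662) and with no trend 4 (512). With equal library medians 13 were called (626) and with library quality weights 14 (2025). Leaving out 1 library gave 0 to 10 member calls (105 to 1051). Leaving out both outlying libraries, chosen after seeing the data, gave 0 (434). In irr with Pep1 against water, 7 members were called (362). With no filter 3 were called (194), with no trend 3 (223) and in a fit of the 2 groups alone 0 (0). Without 1 library 0 to 8 were called (0 to 1398). The averaged irr effect, with 1 member call (2262), gave 0 with no filter (1701), 0 with no trend (2113) and 0 without organelle-encoded genes in the scaling (2178). It gave 25 with equal library medians (2920), 25 with quantile normalization (3038) and 0 to 10 without 1 library (1313 to 3258). The averaged Pep1 effect, with 22 member calls (2100), stayed within 16 to 32 over its 23 alternatives (1111 to 3425). Both genotype comparisons within a treatment and the interaction gave 0 calls throughout. Over these 47 member results, 889 values kept their side of the threshold, 203 lost the call and 12 gained it; the cause was not tested. Fewer libraries also leave less to estimate the spread from. Over all genes tested, replicate numbers did not pair the samples, since deviations of same-numbered libraries correlated between -0.523 and 0.194. Among the members, replicate 3 was the lowest library of its group for 55 genes in irr with Pep1 and 32 in irr under water. It was so for 53 in WT with Pep1 and 53 in WT under water. Fitted with that number as a replicate block, 4 members were called in irr with Pep1, 16 for the averaged irr effect and 29 for the averaged Pep1 effect. Over all genes that block gave 147, 1969 and 1799 calls, against 362, 2262 and 2100 without it. An effect of replicate number shared by the members was not tested. Counting error is largest relative to the level for RPSAb, the scarcest member.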

Other observations

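Several tissue markers outside the ribosome passed in the same comparisons. HIS4 (AT2G28740), a histone gene of replicating cells, fell with Pep1 on average by 0.46 ± 0.09 (limma adjusted p = 0.0106) and PCNA2 (AT2G29570), a replication clamp, by 0.50 ± 0.13 (adjusted p = 0.034), while the mitotic cyclin CYCB1;3 (AT3G11520) rose by 0.53 ± 0.13 (adjusted p = 0.0223). Of the Rubisco small subunit genes, RBCS1A (AT1G67090) fell by 0.38 ± 0.10 (adjusted p = 0.0289) and RBCS1B (AT5G38430) by 0.43 ± 0.12 (adjusted p = 0.0432), and CAB2 (AT1G29920), of the light-harvesting complex, fell by 0.55 ± 0.16 (adjusted p = 0.0426). Of the root markers, measured here in whole seedlings, GL2 (AT1G79840), a regulator of hair patterning, fell with Pep1 on average by 0.89 ± 0.11 (adjusted p = 0.000913). RHS13 (AT4G02270), a root hair gene, was lower in irr than in WT with Pep1 by 2.42 ± 0.32 (adjusted p = 0.00765). It was near 0 in irr, at 0.05 ± 0.04 FPKM, against 4.98 ± 2.68 in WT (SD). LBD41 (AT3G02550), which responds to low oxygen, rose with Pep1 on average by 0.56 ± 0.09 (adjusted p = 0.00291). CYCB1;4 (AT2G26760) fell for the averaged irr effect by 0.40 ± 0.11 (adjusted p = 0.0341).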
